A study of Homo sapiens with 12 samples.

Results

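The genes described here encode the ligands, receptors, ligand traps, SMAD proteins, SMAD regulators and response genes of transforming growth factor beta (TGF-beta) and bone morphogenetic protein (BMP) signalling. They came from a list of 50 gene symbols, and a gene was represented by the array probe set that carried its symbol and no other, with the highest mean over the 12 arrays where several did. The array held 49 of the 50 among 18417 genes with such a probe set. BMPR1A was not analysed here. All 49 were among the 16939 genes tested, and all 49 lay above the 20th percentile of the array on all 12 arrays.

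Ligands of this family are secreted as dimers and bring together type I and type II receptor kinases at the cell surface. TGF-beta and activin receptors phosphorylate SMAD2 and SMAD3, BMP receptors phosphorylate SMAD1, SMAD5 and SMAD9, and both sets of SMADs act in the nucleus with the shared partner SMAD4. Latent binding proteins, proteases and soluble traps set how much free ligand reaches a receptor, and SMAD6, SMAD7 and the SMURF ubiquitin ligases dampen the signal inside the cell. In carcinoma cells the pathway is known both for growth restraint and for changes of cell shape, matrix and migration.

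RNA of the human non-small cell lung cancer lines HTB56 and A549 was hybridised to Affymetrix whole-transcript arrays, with 3 arrays per group. H3R is HTB56 after 3 rounds of in vivo selection, in which cells were injected into a vein of mice and formed nodules in the lung, and H0R is HTB56 with 0 rounds. A3R is A549 after 3 rounds of the same selection, and A0R is A549 with 0 rounds. All 12 samples carry the label untreated for 5-azacytidine, and the labels tell the groups apart by the rounds of selection and the line. The labels name 1 selected population per line and do not say that the 3 arrays of a group came from separate cultures or separate selections, so the p-values measure the spread between these samples, which may be technical.

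Array medians lay between 5.55 and 5.67 log2 units, and arrays of a group correlated over all 33297 probe sets at 0.988 to 0.995. The epithelial keratins KRT8, KRT18 and KRT7 averaged above 8 log2 units in every group. KRT19 did so in A549 only, at 6.2 in H3R, 6.5 in H0R, 9.96 in A3R and 8.82 in A0R. KRT8, a keratin of simple epithelia, averaged 11.45 log2 units in H3R, 11.20 in H0R, 13.03 in A3R and 13.26 in A0R, while the epithelial cadherin CDH1 averaged 4.5 in H3R, 4.55 in H0R, 8.68 in A3R and 9.53 in A0R. In RNA of a whole cell population, fewer expressing cells and less RNA per cell cannot be told apart. Replicate 2 of A0R stood apart from the other A549 arrays. Over 13 genes that averaged above 8 log2 units in both HTB56 groups and had a median below 4.5 in A549, that array lay a median of 0.84 above the A549 median, while the other 5 A549 arrays lay between -0.11 and 0.02. The genes called in A549, the counts, and the line differences described in most detail are therefore also given without it.

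Changes with selection were tested with limma on the log2 values, with 1 mean per group, and a gene was called at a Benjamini-Hochberg adjusted p below 0.05 over all 16939 genes. In HTB56, 22 of the 49 genes were called between H3R and H0R (44.9%), 7 higher and 15 lower, where 19.5% of all genes tested were called, 8.57% higher and 10.9% lower. Their median change was -0.04, and the changes ran from -1.43 to 1.31. In A549, 5 of the 49 were called between A3R and A0R (10.2%), 4 higher and 1 lower, where 1.75% of all genes tested were called, 0.945% higher and 0.809% lower. Their median change was -0.01, and the changes ran from -0.75 to 1.23. Of genes that were above the 20th percentile on all 12 arrays, as the 49 were, 20.2% were called in HTB56 and 1.71% in A549. Only LTBP1 was called in both lines, with opposite signs, 21 genes were called in HTB56 and not in A549, 4 in A549 and not in HTB56, and 23 in neither.

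**Figure D1:**
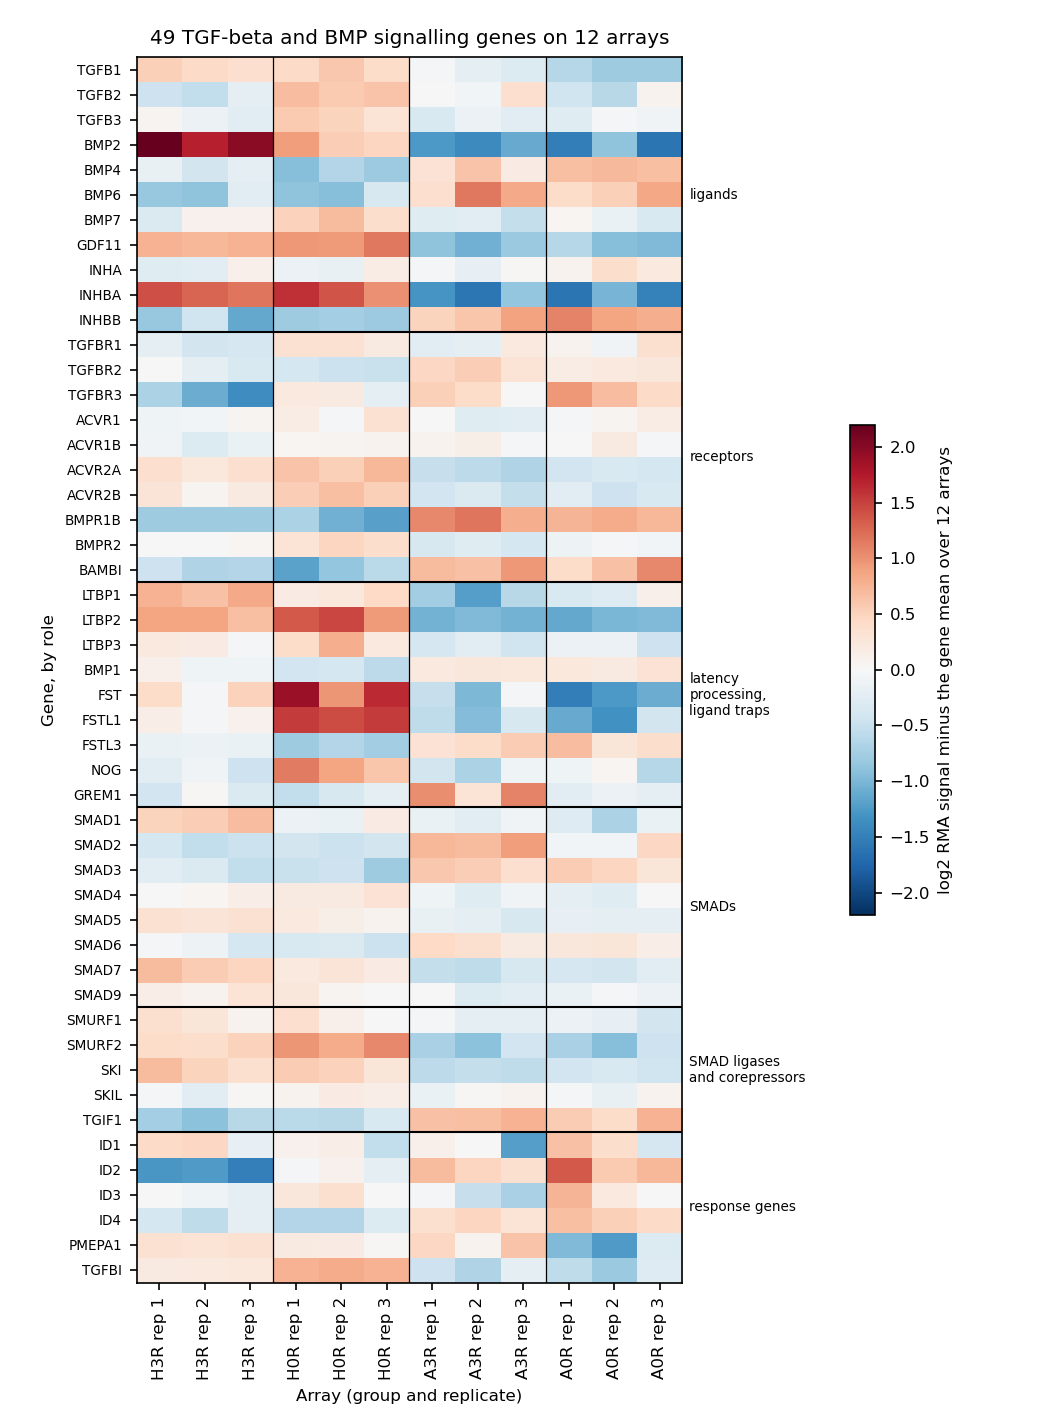
Log2 RMA signal of the 49 genes on each of the 12 arrays, as the difference from the mean of that gene over all arrays, with genes in rows by role and arrays in columns by group. Blocks of rows differ between the HTB56 columns and the A549 columns, and rows such as BMP2, FSTL1, NOG and ID2 also differ between the H3R and H0R columns.

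With the replicate number as a block in the fit, since arrays of the same number deviated together, 26 of the 49 were called in HTB56, where 28% of all genes tested were, and 9 in A549, where 3.32% were. No call was lost with the block. The genes gained were TGFBR2, LTBP3, SMAD3 and TGIF1 in HTB56 and TGFBR3, FST, ID1 and ID3 in A549. The 3 arrays of the selected and of the unselected cells did not overlap for 30 of the 49 genes in HTB56, where 34.3% of all genes tested did not overlap, and for 13 of the 49 in A549, where 12.7% did not.

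The size of the change also differed between the lines. The HTB56 change minus the A549 change was called for 16 of the 49 genes (32.7%), 6 above 0 and 10 below 0, where 11.8% of all genes tested were called, 5.22% above 0 and 6.58% below 0. With the replicate block 20 were called, where 20.4% of all genes tested were. Across the 49 genes the changes in the 2 lines, which share no arrays, had a Pearson correlation of 0.00. The sign was the same for 27 of the 49. Across all genes tested the correlation was 0.01, and the sign was the same for 8541 of 16939. Genes are not independent replicates, and this is a description of the 2 lists of changes.

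**Figure D2:**
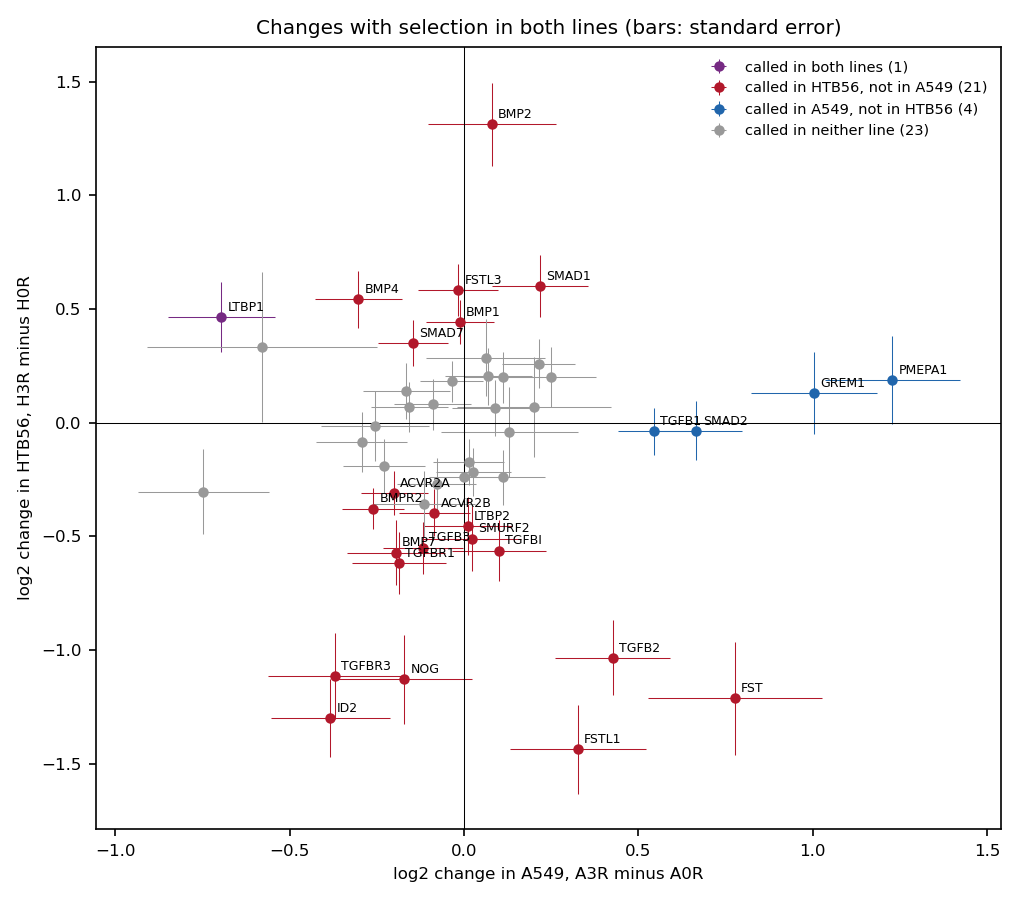
Log2 change with selection in HTB56 (H3R minus H0R, vertical axis) against that in A549 (A3R minus A0R, horizontal axis), with 1 point per gene, bars for the standard error and colour for the line or lines in which the gene was called. BMP2 (1.31) lies at the top, FSTL1 (-1.43) at the bottom and PMEPA1 (1.23 in A549) at the right, while LTBP1 (0.46 in HTB56 and -0.70 in A549) is the gene called in both.

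Among the 11 ligand genes, BMP2 and BMP4 were called higher and TGFB2, TGFB3 and BMP7 lower in H3R than in H0R. TGFB1 was the ligand called in A549. The shares called were 45.5% in HTB56 and 9.09% in A549, against 19.5% and 1.75% of all genes tested. BMP2, a ligand of BMP receptors, read 9.58, 9.09 and 9.37 log2 units on the H3R arrays, 8.30, 7.94 and 7.86 on the H0R arrays, 6.13, 5.99 and 6.28 on the A3R arrays and 5.87, 6.5 and 5.79 on the A0R arrays. All H3R arrays lay above all H0R arrays, and all HTB56 arrays lay above all A549 arrays. The change in HTB56 was 1.31 ± 0.18 (SE, log2), 2.48-fold, with an adjusted p of 0.000138, against 0.08 ± 0.18 and an adjusted p of 0.962 in A549. Without A0R replicate 2 the A549 change was 0.30 (adjusted p = 0.643).

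BMP4, a close relative of BMP2, read 6.21, 5.98 and 6.19 in H3R, 5.44, 5.74 and 5.58 in H0R, 6.70, 7.01 and 6.56 in A3R and 7.05, 7.09 and 7.04 in A0R. The selected arrays did not overlap the unselected ones in either line, higher in HTB56 and lower in A549. In HTB56 BMP4 rose by 0.54 ± 0.12 (SE, adjusted p = 0.00613), while the A549 change of -0.30 ± 0.12 was not called (adjusted p = 0.396). BMP7, another BMP ligand with a dim probe set, read 4.68, 5.09 and 5.09 in H3R, 5.5, 5.69 and 5.39 in H0R, 4.73, 4.76 and 4.48 in A3R and 5.05, 4.85 and 4.66 in A0R. Each H3R array lay below each H0R array. The HTB56 change was -0.57 ± 0.14 (adjusted p = 0.00987), and it was no longer called without H0R replicate 2 (-0.49, adjusted p = 0.0533) or H3R replicate 1 (-0.43, adjusted p = 0.0534).

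TGFB1, the most widely expressed of the TGF-beta ligands, read 9.31, 9.15 and 9.05 in A3R and 8.73, 8.58 and 8.57 in A0R, with 9.87, 9.77 and 9.73 in H3R and 9.77, 9.95 and 9.76 in H0R. The A3R and A0R arrays did not overlap, whereas the H3R and H0R arrays did. TGFB1 rose by 0.54 ± 0.10 in A549 (SE, adjusted p = 0.0127), with an HTB56 change of -0.04 ± 0.10 (adjusted p = 0.876). Without A0R replicate 2 the A549 change was 0.52 with an adjusted p of 0.06, and without A3R replicate 1 it was 0.47 with an adjusted p of 0.0618, so neither passed the threshold.

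TGFB2 encodes the TGF-beta ligand that binds its type II receptor poorly without the coreceptor TGFBR3. It read 8.49, 8.42 and 8.75 in H3R, 9.64, 9.53 and 9.59 in H0R, 8.94, 8.90 and 9.33 in A3R and 8.52, 8.35 and 9.03 in A0R. The H3R arrays all lay below the H0R arrays, while A3R and A0R overlapped. In HTB56 TGFB2 fell by 1.03 on the log2 scale (SE 0.16, adjusted p = 0.000421), and the A549 change of 0.43 ± 0.16 was not called (adjusted p = 0.342, or 0.703 at a change of 0.29 without A0R replicate 2). TGFB3, the remaining TGF-beta ligand, read 5.36, 5.18 and 5.07 in H3R, 5.88, 5.79 and 5.59 in H0R, 4.96, 5.16 and 5.05 in A3R and 5.03, 5.28 and 5.22 in A0R. Again the HTB56 groups did not overlap, and the change was -0.55 ± 0.12 (SE, adjusted p = 0.00337). The ligand genes BMP6, GDF11, INHA, INHBA and INHBB were not called with selection in either line, and their HTB56 changes ran from -0.27 (GDF11) to 0.07 (BMP6).

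Of the 10 receptor genes, 5 were called lower in H3R than in H0R (50%) and none higher, while 10.9% of all genes tested were called lower. In A549 0 were called, against 1.75% of all genes tested, and 1 had an unadjusted p below 0.05. The 5 were TGFBR1, TGFBR3, ACVR2A, ACVR2B and BMPR2, which belong to the TGF-beta, activin and BMP branches. TGFBR3, the coreceptor betaglycan, read 6.31, 5.92 and 5.65 in H3R, 7.22, 7.21 and 6.79 in H0R, 7.53, 7.42 and 7.01 in A3R and 7.96, 7.68 and 7.43 in A0R. All H3R arrays were below all H0R arrays, and in each line replicate 3 was the lowest of its group. The HTB56 change was -1.11 ± 0.19 (SE, adjusted p = 0.00074), 2.16-fold lower. In A549 the change of -0.37 was not called (adjusted p = 0.58) until the replicate block was added (adjusted p = 0.0361).

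TGFBR1, the type I receptor of TGF-beta, read 8.79, 8.61 and 8.64 in H3R, 9.34, 9.35 and 9.21 in H0R, 8.77, 8.82 and 9.22 in A3R and 9.08, 8.92 and 9.36 in A0R. The HTB56 groups were apart and the A549 groups overlapped. It fell by 0.62 in HTB56 (SE 0.14, adjusted p = 0.00479). BMPR2, the type II receptor of BMPs, read 8.39, 8.37 and 8.42 in H3R, 8.69, 8.85 and 8.77 in H0R, 8.03, 8.12 and 8.0 in A3R and 8.27, 8.35 and 8.32 in A0R. The selected arrays lay below the unselected arrays in both lines. BMPR2 fell by 0.38 in HTB56 (SE 0.09, adjusted p = 0.0073), while the A549 change of -0.26 ± 0.09 was not called (adjusted p = 0.245).

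ACVR2A and ACVR2B are type II receptors of activins. ACVR2A read 8.0, 7.86 and 8.01 in H3R, 8.26, 8.16 and 8.37 in H0R, 7.13, 7.07 and 6.97 in A3R and 7.21, 7.30 and 7.25 in A0R. ACVR2B read 6.93, 6.71 and 6.83 in H3R, 7.19, 7.30 and 7.16 in H0R, 6.22, 6.32 and 6.11 in A3R and 6.41, 6.18 and 6.31 in A0R. Both were lower in H3R without overlap, and in A549 that also held for ACVR2A. The HTB56 changes were -0.31 ± 0.10 for ACVR2A (adjusted p = 0.0348) and -0.40 ± 0.10 for ACVR2B (adjusted p = 0.0131). The ACVR2A call was lost without H0R replicate 1 (adjusted p = 0.087), H0R replicate 3 (0.131), H3R replicate 1 (0.0599), H3R replicate 2 (0.147) or H3R replicate 3 (0.0577), and the ACVR2B call without H0R replicate 2 (0.0613) or H3R replicate 2 (0.071). These are adjusted p-values of the same limma fit.

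TGFBR2, the type II receptor of TGF-beta, read 9.82, 9.63 and 9.49 in H3R, 9.45, 9.35 and 9.35 in H0R, 10.28, 10.37 and 10.13 in A3R and 9.998, 10.06 and 10.08 in A0R. The selected arrays were the higher ones in both lines without overlap. The changes of 0.26 ± 0.11 in HTB56 (adjusted p = 0.111) and 0.21 ± 0.11 in A549 (adjusted p = 0.549) were not called, and with the replicate block the HTB56 change was (adjusted p = 0.049). ACVR1, ACVR1B, BMPR1B and BAMBI were not called with selection in either line, with changes between -0.24 and 0.29.

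Latency proteins, proteases and traps held the greatest share of called genes among the roles in HTB56, 7 of 9 (77.8%, against 19.5% of all genes tested). LTBP1, BMP1 and FSTL3 were higher and LTBP2, FST, FSTL1 and NOG lower. In A549 2 of the 9 were called (22.2%, against 1.75% of all genes tested), GREM1 higher and LTBP1 lower. LTBP1, which holds latent TGF-beta in the matrix, read 8.96, 8.84 and 9.03 in H3R, 8.38, 8.42 and 8.64 in H0R, 7.42, 6.99 and 7.58 in A3R and 7.85, 7.92 and 8.31 in A0R. Selected and unselected arrays did not overlap in either line, higher in HTB56 and lower in A549. The changes were 0.46 ± 0.15 in HTB56 (SE, adjusted p = 0.0478) and -0.70 ± 0.15 in A549 (adjusted p = 0.0322), and the difference of the changes was 1.16 ± 0.22 (adjusted p = 0.00271).

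Each of the LTBP1 calls within a line depended on single arrays, while the call of the difference was kept without any 1 array. In HTB56 the adjusted p was 0.111, 0.0716 and 0.136 with replicate 1, 2 or 3 of H3R left out, 0.151 and 0.139 with replicate 1 or 2 of H0R left out, 0.0574 with A3R replicate 1 left out and 0.0559 with A0R replicate 2 left out. In A549 it was 0.0684 and 0.137 with replicate 1 or 2 of A3R left out, 0.0664 and 0.114 with replicate 2 or 3 of A0R left out, and 0.0502 with H0R replicate 2 left out, with LTBP1 changes of -0.53 to -0.75. Adding the replicate block gave adjusted p-values of 0.00631 for HTB56 and 0.00471 for A549.

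LTBP2, a matrix protein of the same family, read 8.22, 8.21 and 8.01 in H3R, 8.70, 8.82 and 8.29 in H0R, 6.30, 6.38 and 6.30 in A3R and 6.23, 6.35 and 6.37 in A0R. Within HTB56 the H3R arrays lay below the H0R arrays, and the change was -0.46 ± 0.13 (adjusted p = 0.0197). It was not called without H0R replicate 1 (adjusted p = 0.0818), H0R replicate 2 (0.106) or H3R replicate 3 (0.0848). BMP1, a metalloprotease that cleaves procollagens and the BMP antagonist chordin, read 7.23, 7.02 and 7.02 in H3R, 6.69, 6.72 and 6.53 in H0R, 7.33, 7.36 and 7.35 in A3R and 7.34, 7.30 and 7.43 in A0R. It rose by 0.44 ± 0.10 in HTB56 (adjusted p = 0.00465) with no overlap of the groups. A second BMP1 probe set, dimmer at a mean of 4.62 log2 units, changed by 0.15 there.

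Follistatin (FST) and FSTL3 bind activins and keep them from their receptors. FST read 7.49, 7.06 and 7.61 in H3R, 9.0, 8.06 and 8.74 in H0R, 6.59, 6.11 and 7.06 in A3R and 5.58, 5.84 and 6.0 in A0R. The groups did not overlap in either line, lower after selection in HTB56 and higher in A549. FST fell by 1.21 on the log2 scale in HTB56 (SE 0.25, adjusted p = 0.00295). The A549 change of 0.78 ± 0.25 was not called (adjusted p = 0.201), and with the replicate block it was (adjusted p = 0.0437). FSTL3 read 7.65, 7.68 and 7.65 in H3R, 7.01, 7.16 and 7.04 in H0R, 8.11, 8.20 and 8.37 in A3R and 8.47, 8.07 and 8.19 in A0R. It went opposite to FST in HTB56, with a rise of 0.58 ± 0.11 (SE, adjusted p = 0.002), and its A549 groups overlapped.

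FSTL1, a secreted glycoprotein named for its follistatin-like domain, read 9.05, 8.88 and 9.02 in H3R, 10.46, 10.35 and 10.45 in H0R, 8.36, 7.97 and 8.56 in A3R and 7.81, 7.59 and 8.51 in A0R. The gap between H3R and H0R was many times the spread within either group. The HTB56 change of -1.43 ± 0.20 (SE, adjusted p = 0.00011), 2.70-fold lower, was the largest among the 49 genes. NOG encodes noggin, a trap of BMPs, and had a dim probe set, with a mean of 5.13 log2 units over the 12 arrays. It read 4.91, 5.06 and 4.68 in H3R, 6.28, 6.0 and 5.75 in H0R, 4.73, 4.43 and 5.05 in A3R and 5.04, 5.18 and 4.51 in A0R. After selection the HTB56 arrays lay in the range of the A549 arrays. NOG fell by 1.13 in HTB56 (SE 0.19, adjusted p = 0.000771), 2.19-fold lower.

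GREM1 encodes gremlin, another BMP trap, and had a dim probe set, with a mean of 4.78 log2 units over the 12 arrays. It read 5.79, 5.09 and 5.87 in A3R and 4.53, 4.65 and 4.56 in A0R, with 4.36, 4.80 and 4.45 in H3R and 4.23, 4.43 and 4.56 in H0R. The A3R arrays alone stood above the rest. GREM1 rose by 1.0 ± 0.18 in A549 (SE, adjusted p = 0.00843), 2.0-fold, and by 1.04 without A0R replicate 2 (adjusted p = 0.0291). Without A3R replicate 1 the rise was 0.90 and the adjusted p was 0.0501. LTBP3 was not called with selection in either line, with changes of -0.36 in HTB56 (adjusted p = 0.114, or 0.0174 with the replicate block) and -0.12 in A549.

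**Figure D3:**
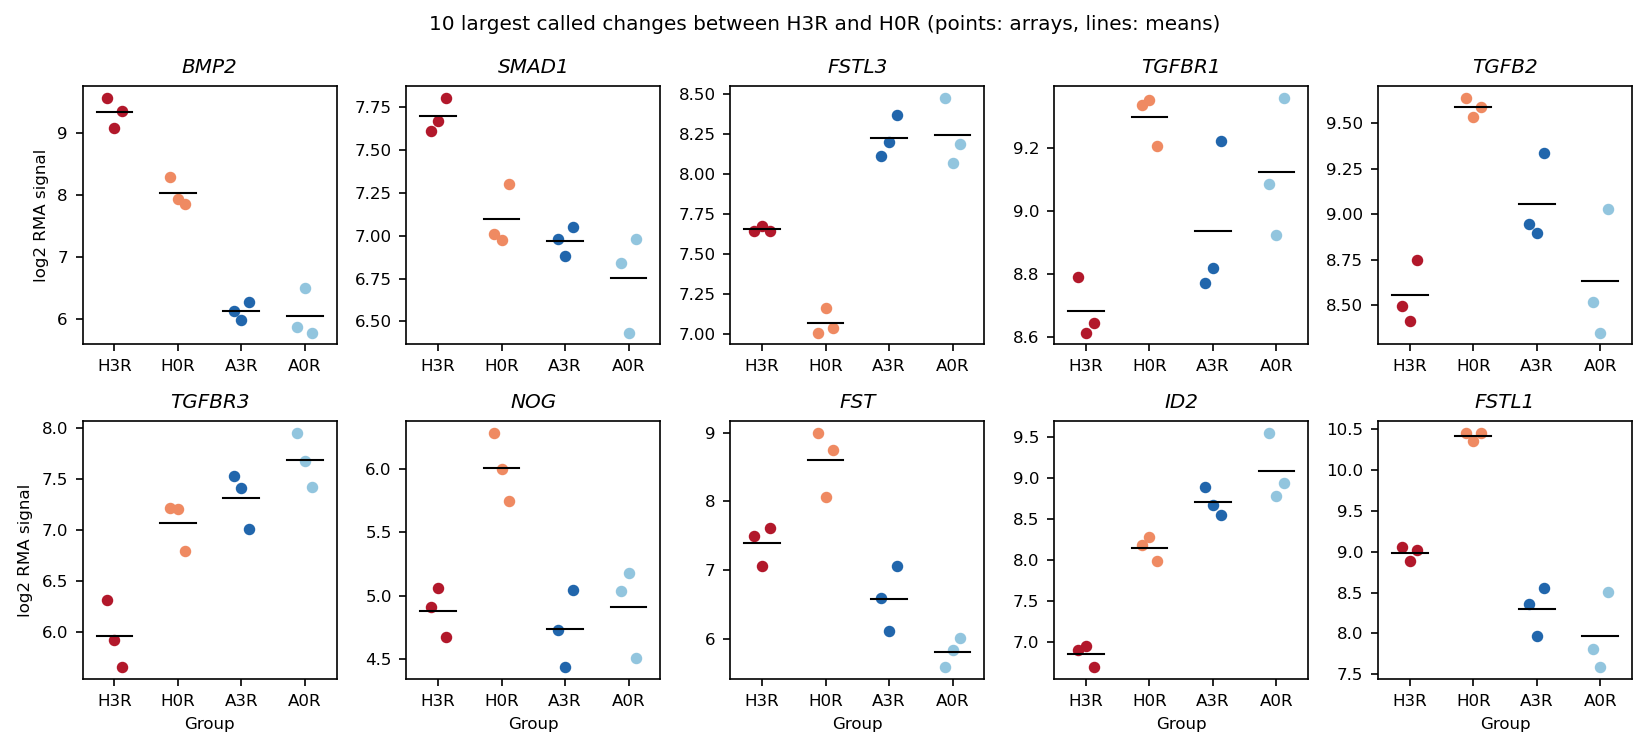
Log2 RMA signal on each array (points) and group means (lines) of the 10 genes with the largest called changes between H3R and H0R, by group. The H3R points of BMP2 (9.09 to 9.58) lie above its H0R points (7.86 to 8.30), and those of FSTL1 (8.88 to 9.05) lie below its H0R points (10.35 to 10.46).

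SMAD1 and SMAD7 were the 2 of 8 SMAD genes called in HTB56, both higher (25%, near the 19.5% of all genes tested). SMAD2 was the 1 called in A549 (12.5%, where 1.75% of all genes tested were). SMAD1, which BMP receptors phosphorylate, read 7.61, 7.67 and 7.81 in H3R, 7.01, 6.98 and 7.30 in H0R, 6.98, 6.88 and 7.05 in A3R and 6.84, 6.43 and 6.98 in A0R. The H3R arrays lay above those of every other group. SMAD1 rose by 0.60 ± 0.14 in HTB56 (SE, adjusted p = 0.00611).

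SMAD7, an inhibitory SMAD that TGF-beta induces, read 7.59, 7.45 and 7.36 in H3R, 7.11, 7.16 and 7.07 in H0R, 6.37, 6.32 and 6.53 in A3R and 6.51, 6.49 and 6.66 in A0R. The HTB56 arrays did not overlap and the A549 arrays did. The HTB56 change was 0.35 ± 0.10 (adjusted p = 0.0227), and it was not called without H0R replicate 1 (adjusted p = 0.0667), H0R replicate 3 (0.0697), H3R replicate 1 (0.1) or H3R replicate 2 (0.0616).

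SMAD2, which TGF-beta and activin receptors phosphorylate, read 10.40, 10.37 and 10.60 in A3R and 9.63, 9.62 and 10.13 in A0R, with 9.29, 9.14 and 9.21 in H3R and 9.27, 9.20 and 9.28 in H0R. Replicate 3 of A0R lay nearest to the A3R arrays. SMAD2 rose by 0.67 ± 0.13 in A549 (SE, adjusted p = 0.0146). That call was lost without A0R replicate 1 (0.58, adjusted p = 0.0794), A0R replicate 2 (0.58, adjusted p = 0.0808) or A3R replicate 3 (0.59, adjusted p = 0.0678). A second SMAD2 probe set changed by 0.40 in A549 and by -0.33 in HTB56, where the first changed by -0.04. SMAD3, SMAD4, SMAD5, SMAD6 and SMAD9 were not called in either line, with changes from -0.17 to 0.20 in HTB56 and from -0.09 to 0.11 in A549.

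Among ubiquitin ligases and corepressors, SMURF2 alone of 5 genes was called, in HTB56 (20%, near the 19.5% of all genes tested). In A549 limma called 0 of the 5, with 0 at an unadjusted p below 0.05, and 1.75% of all genes tested. SMURF2, a ligase that marks SMADs and receptors for degradation, read 9.44, 9.41 and 9.54 in H3R, 10.002, 9.84 and 10.08 in H0R, 8.32, 8.12 and 8.62 in A3R and 8.31, 8.09 and 8.58 in A0R. The H3R arrays lay below the H0R arrays, while A3R and A0R arrays of the same number lay close together. The HTB56 change was -0.51 ± 0.14 (adjusted p = 0.0195), and it was not called without H0R replicate 1 (adjusted p = 0.061), H0R replicate 3 (0.0703), H3R replicate 1 (0.059) or H3R replicate 2 (0.0688). SMURF1, SKI, SKIL and TGIF1 changed by -0.24 to 0.07 in HTB56 and by -0.16 to 0.11 in A549, with none called. The TGIF1 change of -0.24 in HTB56 was called with the replicate block (adjusted p = 0.033).

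Of 6 response genes, ID2 and TGFBI were called lower in HTB56 (33.3%) and PMEPA1 was called higher in A549 (16.7%). The shares of all genes tested were 19.5% in HTB56 and 1.75% in A549. PMEPA1, a TGF-beta-induced membrane protein that limits SMAD activation, read 10.26, 9.88 and 10.43 in A3R and 8.83, 8.56 and 9.5 in A0R, with 10.13, 10.11 and 10.13 in H3R and 9.99, 9.99 and 9.82 in H0R. All A3R arrays lay above all A0R arrays. The A3R arrays lay in the range of the HTB56 arrays or above it. PMEPA1 rose by 1.23 ± 0.19 in A549 (SE, adjusted p = 0.00282), 2.34-fold, and by 1.03 without A0R replicate 2 (adjusted p = 0.015). It was the A549 call that was kept without any 1 array, and its HTB56 change of 0.19 ± 0.19 was not called (adjusted p = 0.613).

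**Figure D4:**
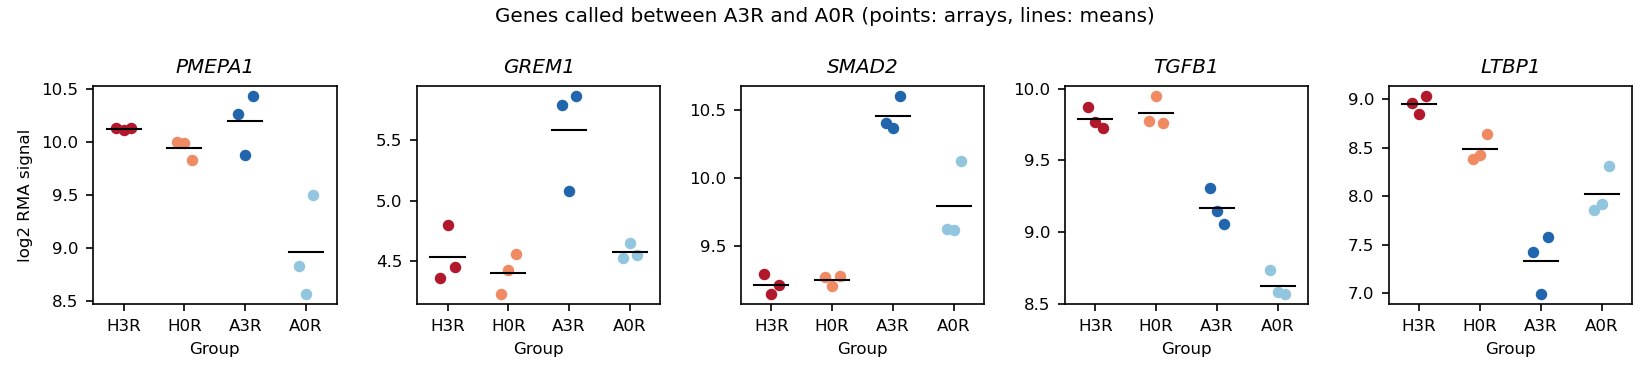
Log2 RMA signal on each array (points) and group means (lines) of the 5 genes called between A3R and A0R, by group. The A3R points of PMEPA1 (9.88 to 10.43) lie above its A0R points (8.56 to 9.5), and those of LTBP1 (6.99 to 7.58) lie below its A0R points (7.85 to 8.31).

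ID2, an inhibitor of basic helix-loop-helix factors and a known BMP target, read 6.91, 6.95 and 6.69 in H3R, 8.18, 8.28 and 7.99 in H0R, 8.88, 8.67 and 8.55 in A3R and 9.55, 8.77 and 8.93 in A0R. The H3R arrays lay below all 9 other arrays. ID2 fell by 1.30 on the log2 scale in HTB56 (SE 0.17, adjusted p = 7.81e-05), 2.46-fold lower, and its A549 change was -0.38 ± 0.17 (adjusted p = 0.472, or 0.242 at a change of -0.54 without A0R replicate 2). TGFBI, an adhesive matrix protein induced by TGF-beta, read 11.81, 11.82 and 11.83 in H3R, 12.36, 12.42 and 12.36 in H0R, 11.14, 10.93 and 11.38 in A3R and 11.05, 10.79 and 11.32 in A0R. It fell by 0.56 in HTB56 (SE 0.14, adjusted p = 0.00838) with groups that did not overlap.

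ID1 and ID3 are also BMP targets. ID3 read 9.10, 9.01 and 8.90 in H3R, 9.35, 9.45 and 9.12 in H0R, 9.06, 8.60 and 8.39 in A3R and 9.86, 9.32 and 9.12 in A0R. The selected arrays lay below the unselected ones without overlap in both lines. Its changes of -0.30 ± 0.19 in HTB56 (adjusted p = 0.335) and -0.75 ± 0.19 in A549 (adjusted p = 0.066) were not called. The A549 change was called without A0R replicate 3 (-0.90, adjusted p = 0.0305), without A3R replicate 1 (-0.94, adjusted p = 0.0258) and with the replicate block (adjusted p = 0.00795). ID1 read 9.0, 9.04 and 8.39 in H3R, 8.67, 8.72 and 8.04 in H0R, 8.69, 8.58 and 7.37 in A3R and 9.22, 8.96 and 8.21 in A0R. Replicate 3 was the lowest array of every group. Its A549 change of -0.58 ± 0.33 was not called (adjusted p = 0.641), and with the replicate block it was (adjusted p = 0.0361). ID4 changed by 0.14 in HTB56 and -0.17 in A549 and was not called.

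Promoter sequence is shown for 4 of these genes, PMEPA1 and GREM1 as the called A549 genes with the greatest rises, and ID2 and SMAD7 as genes known to be induced by the pathway that changed in opposite directions in HTB56. Each is the 250 bases before the start of the first RefSeq transcript listed for the gene in GRCh38.p14, written 5′ to 3′ on the strand of the gene. PMEPA1 lies on the minus strand at chr20:57711473-57711722, GREM1 on the plus strand at chr15:32717754-32718003, ID2 on the plus strand at chr2:8681806-8682055 and SMAD7 on the minus strand at chr18:48950966-48951215. Capitals mark CAGAC or its reverse complement GTCTG, a core bound by SMAD3 and SMAD4, and GGCGCC, a GC-rich core bound by BMP-activated SMADs, and no match of one overlapped the other.
PMEPA1: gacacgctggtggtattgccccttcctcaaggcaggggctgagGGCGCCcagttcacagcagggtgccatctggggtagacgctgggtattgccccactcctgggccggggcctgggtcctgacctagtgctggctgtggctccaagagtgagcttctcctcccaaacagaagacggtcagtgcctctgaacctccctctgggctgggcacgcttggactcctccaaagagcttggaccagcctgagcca
GREM1: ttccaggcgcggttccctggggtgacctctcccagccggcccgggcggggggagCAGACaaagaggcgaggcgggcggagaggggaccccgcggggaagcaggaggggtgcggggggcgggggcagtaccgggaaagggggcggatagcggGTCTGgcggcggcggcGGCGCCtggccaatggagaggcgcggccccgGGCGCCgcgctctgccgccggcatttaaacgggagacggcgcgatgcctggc
ID2: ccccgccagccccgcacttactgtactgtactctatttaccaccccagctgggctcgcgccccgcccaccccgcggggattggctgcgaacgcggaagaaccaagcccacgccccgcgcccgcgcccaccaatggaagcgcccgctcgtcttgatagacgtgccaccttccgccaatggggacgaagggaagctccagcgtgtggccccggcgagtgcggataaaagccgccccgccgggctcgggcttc
SMAD7: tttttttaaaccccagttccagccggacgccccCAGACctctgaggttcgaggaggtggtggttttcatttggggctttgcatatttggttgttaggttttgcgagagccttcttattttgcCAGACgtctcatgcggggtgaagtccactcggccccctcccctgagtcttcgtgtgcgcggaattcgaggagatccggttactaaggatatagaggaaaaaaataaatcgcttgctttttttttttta

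In the windows shown, GREM1 held 2 matches of CAGAC and 2 of GGCGCC, SMAD7 held 2 of CAGAC, PMEPA1 held 1 of GGCGCC and ID2 held none. ID2 has 1 window in the table, while other starts of the other genes differ in their matches. PMEPA1 has 4 windows, with 1 match of CAGAC in the second and 1 in the fourth, SMAD7 has 3, with 1 match of CAGAC in the second and 0 in the third, and GREM1 has 2, with 1 match of CAGAC in the second. Among the 35116 windows of 250 bases before RefSeq starts, 38% held CAGAC on either strand and 16.4% held GGCGCC. Of 85 windows of 45 of the 50 listed genes, 40% held CAGAC and 23.5% held GGCGCC. A match is a stretch of letters and not a measured binding site.

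Other pathway genes were counted from lists of further family members, to be read against the 19.5% of all genes tested that were called in HTB56 and the 1.75% in A549. Of 19 other ligand genes tested, 0 were called in either line, and 0 had an unadjusted p below 0.05 in either. Of 8 other receptor and coreceptor genes, 3 were called in HTB56 (37.5%) and 0 in A549, where 0 had an unadjusted p below 0.05. NEO1, a receptor for RGM proteins that bind BMPs, changed by -1.55 ± 0.11 (adjusted p = 1.63e-07), ENG, the coreceptor endoglin, by -0.63 (adjusted p = 0.00332) and RGMB, a BMP coreceptor, by 0.54 (adjusted p = 0.00569) in HTB56.

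Of 13 other latency factors and activators, 6 were called in HTB56 (46.2%), 3 in each direction, and 1 in A549 (7.69%). MMP2, a gelatinase that can release latent TGF-beta, read 7.32, 7.24 and 7.39 in H3R and 9.61, 9.90 and 9.48 in H0R and fell by 2.35 (adjusted p = 1.01e-08). MMP14, which activates MMP2, fell by 0.89 in HTB56 (adjusted p = 0.000597), and FURIN, the protease that cleaves TGF-beta precursors, rose by 0.86 (adjusted p = 0.000692). The A549 call was FBN2, a microfibril protein, at 6.42, 5.92 and 6.22 in A3R against 4.53, 4.74 and 4.80 in A0R, a change of 1.5 (adjusted p = 1.53e-05).

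Of 15 other ligand traps, 3 were called in HTB56 (20%, close to the share of all genes) and 1 in A549 (6.67%). FSTL5, a follistatin-like gene, read 3.36, 3.2 and 3.18 in H3R against 7.17, 6.73 and 6.72 in H0R, and the H3R values lay below the mean 20th percentile of the arrays, 3.48. Its change of -3.63 (adjusted p = 3.15e-10) therefore compares a clear signal with one near the floor of the array. SOSTDC1, a BMP antagonist, fell by 0.91 (adjusted p = 0.002) and TWSG1, a BMP-binding protein, rose by 0.71 (adjusted p = 0.000102) in HTB56. FSTL4 was the A549 call, with 7.76, 7.14 and 7.75 in A3R against 6.14, 5.87 and 6.42 in A0R, a change of 1.40 (adjusted p = 0.000688).

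Of 27 other intracellular regulators, 7 were called in HTB56 (25.9%, near the share of all genes), 4 higher and 3 lower, and 0 in A549, where 0 had an unadjusted p below 0.05. FKBP1A, which binds type I receptors, rose by 0.60 (adjusted p = 0.000171), PPM1A, a SMAD phosphatase, fell by 0.52 (adjusted p = 0.00615) and CREBBP, a SMAD coactivator, fell by 0.44 (adjusted p = 0.0271) in HTB56. Of 23 other response genes, 8 were called in HTB56 (34.8%), 3 higher and 5 lower, and 2 in A549 (8.7%), both higher. LOX, a collagen crosslinking enzyme, fell by 2.02 (adjusted p = 5.84e-06) in HTB56, while TGM2, a transglutaminase, rose by 1.72 (adjusted p = 9.57e-06) and COL1A1, a chain of type I collagen, rose by 1.41 (adjusted p = 6.56e-07). In A549 the cadherin CDH2 rose by 1.90 (adjusted p = 0.000154), with 7.47, 7.13 and 7.98 in A3R against 5.56, 5.23 and 6.07 in A0R, and MSX2, a homeobox target of BMPs, rose by 0.62 (adjusted p = 0.0309).

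Markers of other cell types also moved in HTB56. Of 6 fibroblast markers tested, COL3A1 (1.29), PDGFRA (0.71) and LUM (1.78) were called higher in H3R than in H0R, and the mean level of the 7 listed markers was 5.66 to 5.92 log2 units on the H3R arrays, 5.11 to 5.40 on H0R, 4.60 to 4.72 on A3R and 4.37 to 4.57 on A0R. The fibroblast markers COL1A2, THY1 and PDGFRB (-0.18) were not called in HTB56, and DCN lay below the 20th percentile on 10 or more arrays. Of 4 leukocyte markers tested LYZ (1.66) was called higher in H3R, with PTPRC below the 20th percentile, and of 4 endothelial markers 0 were called in either line, with 0 at an unadjusted p below 0.05 and with TEK and EMCN below the 20th percentile. The mean of the leukocyte list was 4.37 to 4.55 in H3R, 3.98 to 4.12 in H0R, 4.17 to 4.26 in A3R and 4.13 to 4.25 in A0R. The mean of the endothelial list was 4.10 to 4.36 in H3R, 4.16 to 4.30 in H0R, 4.24 to 4.33 in A3R and 4.17 to 4.25 in A0R. In A549 limma called 0 fibroblast, 0 endothelial and 0 leukocyte markers, with 1 at an unadjusted p below 0.05, LUM at 0.91 (adjusted p = 0.0816). Of 6 epithelial markers, EPCAM rose (1.02) and KRT7 fell (-0.91) in HTB56, KRT19 rose (1.14) and CDH1 fell (-0.85) in A549, and the mean of the list was 8.42 to 8.56 in H3R, 8.39 to 8.58 in H0R, 10.69 to 10.82 in A3R and 10.76 to 10.89 in A0R. The part of these markers in the results was not tested.

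The test of the difference between the changes in HTB56 and A549 called 11.8% of all genes tested. It called 4 of 11 ligands (36.4%), 7 of 9 latency, processing and trap genes (77.8%), 2 of 8 SMADs (25%) and 3 of 6 response genes (50%). Of the 10 receptors it called 0, with 2 at an unadjusted p below 0.05, and of the 5 ligases and corepressors 0, with 1 at an unadjusted p below 0.05. At 11.8%, a count of 0 in such small lists says little. The difference was kept without any 1 array for TGFB2 (-1.46 ± 0.23, SE), BMP2 (1.23 ± 0.26), BMP4 (0.84 ± 0.18), LTBP1 (1.16 ± 0.22), FST (-1.99 ± 0.35) and FSTL1 (-1.76 ± 0.28), with adjusted p-values of 0.000708 to 0.006. For the other 10 the call was lost without at least 1 array. Without A0R replicate 2, 10 of the 49 were called, where 1701 of all 16939 genes tested were, and these 6 differences were -1.32, 1.01, 0.83, 1.21, -2.0 and -1.57 in the order given. The replicate block added TGFBR3 (adjusted p = 0.00129), SMURF2 (0.0105), TGIF1 (0.038) and ID1 (0.0052). TGFBR1, ACVR2A, ACVR2B and BMPR2, which fell in HTB56, are not shown to have changed differently in A549.

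The lines themselves differed in most of these genes. Between H0R and A0R 39 of the 49 were called, 24 higher and 15 lower, where 45.2% of all genes tested were called, 24.9% higher and 20.3% lower. Between H3R and A3R 37 were called, 20 higher and 17 lower, where 44.6% were called, 24.9% higher and 19.7% lower. For 33 genes the call and the direction were shared before and after selection. Without A0R replicate 2, 38 were called between H0R and A0R, where 6988 of all 16939 genes tested were, and 36 between H3R and A3R, where 7500 were. Of genes above the 20th percentile on all 12 arrays, 46.6% were called between H0R and A0R and 46.2% between H3R and A3R. The arrays of the 2 lines did not overlap for 40 of the 49 genes between H0R and A0R, where 53.2% of all genes tested did not, and for 39 of the 49 between H3R and A3R, where 51.6% did not.

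The greatest excess of H0R over A0R was in FST (2.79, adjusted p = 2.83e-07), INHBA (2.71, 3e-08), FSTL1 (2.45, 8.39e-08), LTBP2 (2.29, 1.54e-09), BMP2 (1.98, 4.2e-07) and GDF11 (1.86, 4.5e-09). INHBA, the subunit of activin A, read 7.55, 7.41 and 7.32 in H3R and 4.84, 4.54 and 5.29 in A3R, with 7.74, 7.52 and 7.15 in H0R and 4.52, 5.11 and 4.65 in A0R. GDF11, an activin-like ligand, read 7.25, 7.21 and 7.24 in H3R and 5.60, 5.43 and 5.66 in A3R, with 7.44, 7.43 and 7.64 in H0R and 5.86, 5.55 and 5.51 in A0R. For both genes every HTB56 array lay above every A549 array, and selection was not called in either line.

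The greatest deficits of H0R against A0R were in BMPR1B (-1.74, adjusted p = 4e-08), INHBB (-1.70, 3.4e-07), BAMBI (-1.58, 2.09e-06), BMP4 (-1.47, 1.54e-07), BMP6 (-1.31, 0.000162) and FSTL3 (-1.17, 7.17e-07). BMPR1B, a type I BMP receptor, read 6.11, 6.11 and 6.11 in H3R and 7.94, 8.08 and 7.68 in A3R, with 6.20, 5.84 and 5.69 in H0R and 7.64, 7.70 and 7.62 in A0R. INHBB, the subunit of activin B, read 7.06, 7.46 and 6.78 in H3R and 8.38, 8.51 and 8.79 in A3R, with 7.11, 7.14 and 7.09 in H0R and 8.99, 8.76 and 8.70 in A0R. The activin subunits thus ran in opposite directions between the lines, with INHBA higher and INHBB lower in HTB56. Without A0R replicate 2 all 12 of these differences between H0R and A0R were still called, and BMP2 moved most, to 2.2.

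BAMBI, a pseudoreceptor without a kinase domain, read 8.05, 7.84 and 7.86 in H3R and 9.21, 9.16 and 9.46 in A3R, with 7.33, 7.66 and 7.91 in H0R and 8.92, 9.15 and 9.57 in A0R. BMP6, a BMP ligand, read 4.86, 4.82 and 5.46 in H3R and 6.08, 6.86 and 6.54 in A3R, with 4.82, 4.77 and 5.35 in H0R and 6.11, 6.22 and 6.55 in A0R. Neither gene overlapped between the lines. Replicate 3 was the highest HTB56 array of BMP6 in each group.

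**Figure D5:**
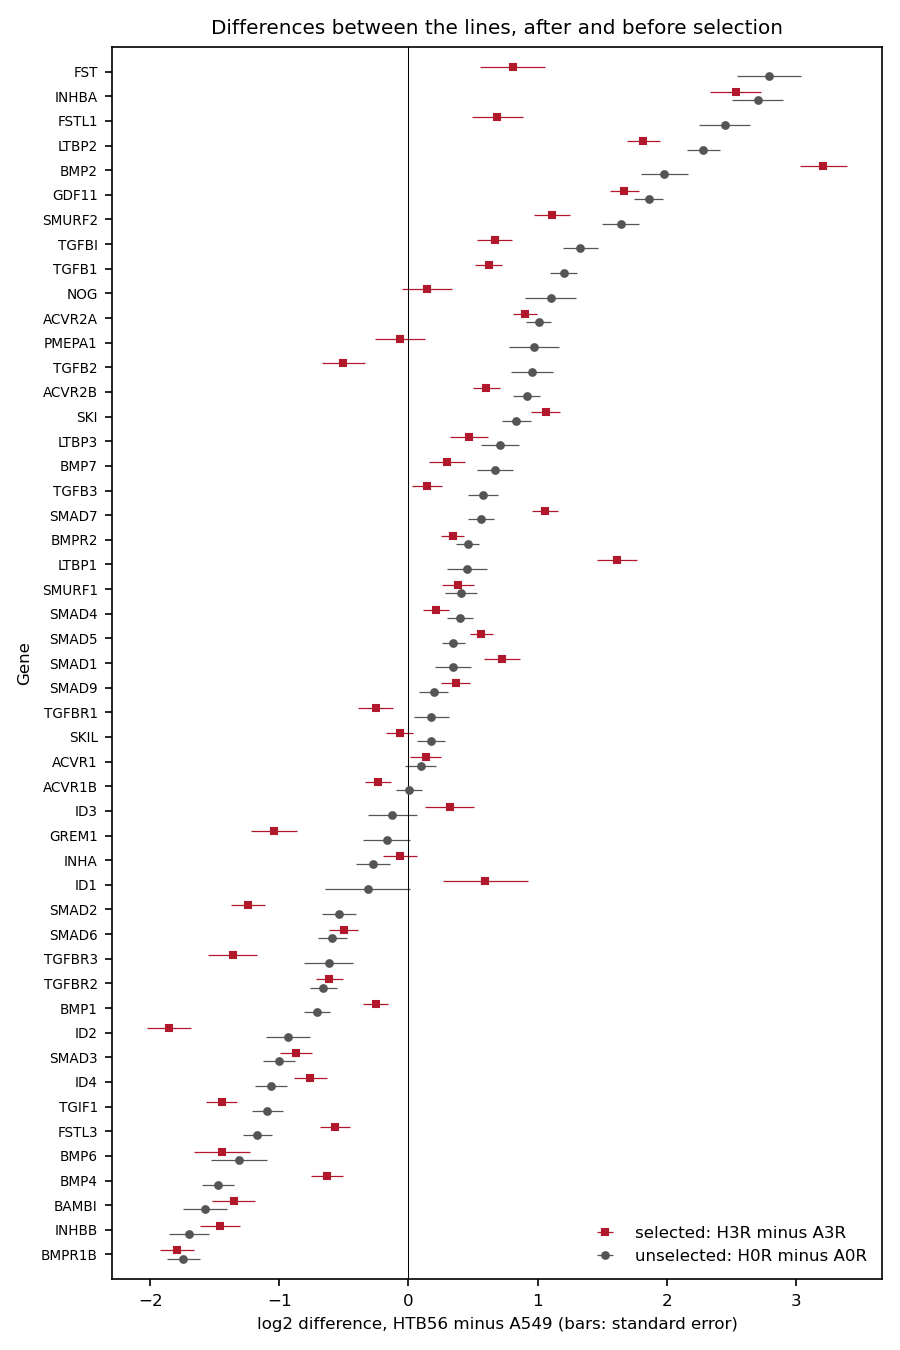
Log2 difference between HTB56 and A549 for each gene, after selection (H3R minus A3R, squares) and before it (H0R minus A0R, circles), with bars for the standard error and genes ordered by the difference before selection. BMP2 (3.21 after and 1.98 before) lies furthest to the right, and TGFB2 (-0.50 after and 0.96 before) lies on opposite sides of 0.

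After selection the lines stood further apart in some genes and closer in others. BMP2 differed by 3.21 ± 0.18 between H3R and A3R (adjusted p = 2.62e-09), 9.28-fold, against 1.98 ± 0.18 between H0R and A0R. LTBP1 differed by 1.61 ± 0.15 after selection and 0.45 ± 0.15 before, a call that was lost without H0R replicate 3 (adjusted p = 0.0947), A0R replicate 1 (0.102) or A0R replicate 2 (0.0866). PMEPA1 and NOG were higher in H0R than in A0R, by 0.97 (adjusted p = 0.0007) and 1.10 (adjusted p = 0.000263), and were not called between H3R and A3R, at -0.07 (adjusted p = 0.813) and 0.14 (adjusted p = 0.603). TGFB2 was higher in H0R than in A0R by 0.96 (adjusted p = 0.000211) and lower in H3R than in A3R, at -0.50 (adjusted p = 0.0213). The call after selection was lost without A3R replicate 3 (-0.37, adjusted p = 0.103), H3R replicate 1 (-0.47, adjusted p = 0.0651) or H3R replicate 2 (-0.43, adjusted p = 0.0844). INHA, ACVR1, ACVR1B, SKIL, ID1 and ID3 were called by limma in 0 of the 5 comparisons, though INHA and ID3 in A549, and ACVR1B in HTB56 and between H3R and A3R, had an unadjusted p below 0.05.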

How the data were processed

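RNA levels of 12 samples, 3 in each of 4 groups, were read on Affymetrix arrays. Per the submitters' processing notes, the authors deposited log2 values from RMA (background correction, quantile normalization and summary of probes to probe sets) and used Affymetrix Expression Console. Software versions and the genome build were not given in the sources used here. Quantile normalization gives the arrays a common distribution, so a shift shared by all genes cannot be seen, and dim probe sets show compressed changes.

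Gene symbols came from the platform annotation, and 1754 probe sets with several symbols and 12083 unnamed ones were left out. Genes above the 20th percentile of their array on at least 3 arrays were fitted with limma 3.58.1 (lmFit and eBayes, R 4.3.3), 1 mean per group, two-sided, with Benjamini-Hochberg adjustment over 16939 genes. The fit was tested on data simulated with independent noise on each array. That simulation did not include deviations shared by arrays of the same replicate number. Alternatives covered the filter, probe sets, scaling, variance model, array weights, threshold, a replicate block and leaving out each array.

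Deviations from the group means correlated at 0.16 to 0.55 between arrays of the same replicate number, against -0.42 to 0.20 between other arrays, and 12 of 12 arrays matched their own number best. The numbers come from the sample titles and were taken to pair the samples only in the alternative fit with the replicate block. The main fit, which gave the values for which no alternative is named, did not pair them.

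The members, the gene lists and the tests were chosen with earlier results of these data known. Genes named with values on every array are those called with selection or in its difference, the 6 highest and 6 lowest between lines, and, chosen after their values were seen, TGFBR2, ID1, ID3 and those of the further lists with array values. Of each further list up to 3 called genes per line are named, by size of change. Promoters and starts came from RefSeq.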

Additional observations from a re-analysis of the deposited data

Results flagged for a closer look

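For 16 genes the change with selection differed between HTB56 and A549 by a limma test of the difference itself, given here as the HTB56 change minus the A549 change, in log2 units. The difference was below 0 for FST (-1.99, adjusted p = 0.00175), FSTL1 (-1.76, 0.000708), TGFB2 (-1.46, 0.000799), PMEPA1 (-1.04, 0.0219), NOG (-0.96, 0.0353), ID2 (-0.92, 0.0224), GREM1 (-0.87, 0.038), SMAD2 (-0.70, 0.0215), TGFBI (-0.66, 0.0366) and TGFB1 (-0.58, 0.0174). It was above 0 for BMP2 (1.23, 0.006), LTBP1 (1.16, 0.00271), BMP4 (0.84, 0.00565), FSTL3 (0.60, 0.0248), SMAD7 (0.50, 0.0344) and BMP1 (0.45, 0.0453).

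PMEPA1, GREM1, SMAD2 and TGFB1 were called in A549 and not in HTB56, and FST, FSTL1, TGFB2, NOG, ID2, TGFBI, BMP2, BMP4, FSTL3, SMAD7 and BMP1 were called in HTB56 and not in A549. LTBP1 was called in both, with opposite signs.

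The call of the difference was lost for 10 genes when single arrays were left out. For TGFB1 this was H0R replicate 2 (adjusted p = 0.0508). For SMAD2 it was A0R replicate 1 (0.059), A0R replicate 2 (0.0572) or H3R replicate 2 (0.0578). For ID2 it was A0R replicate 2 (0.0567), A3R replicate 1 (0.0574), H0R replicate 2 (0.0614) or H3R replicate 3 (0.0535). For PMEPA1 it was A0R replicate 1 (0.0553), A0R replicate 2 (0.0508), A3R replicate 3 (0.0506), H0R replicate 1 (0.0505) or H0R replicate 2 (0.0532). For FSTL3 it was A0R replicate 1 (0.0606), A3R replicate 1 (0.0579), A3R replicate 2 (0.0547), H0R replicate 1 (0.0626), H0R replicate 3 (0.0514) or H3R replicate 2 (0.0587). NOG kept it when A0R replicate 1, A0R replicate 2, A3R replicate 2, H0R replicate 3 or H3R replicate 2 was left out and lost it without any of the other arrays (up to 0.0909). GREM1 kept it without A3R replicate 2, H0R replicate 1 or H3R replicate 2 and lost it otherwise (up to 0.0938), SMAD7 kept it without A0R replicate 2, A3R replicate 3 or H3R replicate 3 and lost it otherwise (up to 0.0872), and TGFBI kept it without A0R replicate 3 or A3R replicate 2 and lost it otherwise (up to 0.0867). BMP1 lost it without any of the 12 arrays (up to 0.112). With array weights the GREM1 difference was -0.51 (adjusted p = 0.209), and with the mean of both its probe sets the BMP1 difference was 0.30 (adjusted p = 0.149).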

How the results depend on the processing

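None of the selection changes or line differences of the 49 genes that was called turned its direction under any alternative run. The number of genes of the 49 called in A549, 5 in all, was 2 with only the arrays compared, 9 with the replicate block, 2 at an adjusted p below 0.01 and 2 to 5 with 1 array left out, and over all genes, 297, it was 179, 562, 142 and 179 to 286 in the same order. Leaving out A0R replicate 2 gave 2 (TGFB1, LTBP1 and SMAD2 lost), with 192 over all genes, and leaving out A3R replicate 1 gave 3, with 204 over all genes. In HTB56, 22 of the 49 were called, with 17 to 22 when 1 array was left out, and over all genes 3298 became 2039 at an adjusted p below 0.01 and 2491 to 3432 with 1 array left out. For the difference between the lines, 16 of the 49 became 6 at an adjusted p below 0.01 and 8 to 13 with 1 array left out, and over all genes 2000 became 3458 with the replicate block, 1036 at an adjusted p below 0.01 and 1524 to 1951 with 1 array left out. The line comparisons called 37 to 39 (H0R minus A0R) and 32 to 37 (H3R minus A3R) of the 49 with 1 array left out, and over all genes 6705 to 7805 and 6656 to 7669. With only the arrays compared, TGFB1, SMAD2 and LTBP1 were no longer called in A549 (adjusted p = 0.0721, 0.0873 and 0.123) nor ACVR2A in HTB56 (0.0601). Cyclic loess ended both LTBP1 calls (0.0561 in A549 and 0.0588 in HTB56), and median centring ended that of ACVR2A (0.0592). With array weights ACVR1B (0.0214), LTBP3 (0.0449) and SKIL (0.0375) were also called in HTB56 and ID3 (0.0223) in A549. Beside the calls named in the report, the replicate block added INHA and SMAD1 between H0R and A0R and ACVR1B, SMAD4, ID1 and ID3 between H3R and A3R, and changed no other call. The causes were not tested. With 3 arrays per group, the smallest selection change called was that of ACVR2A in HTB56 (-0.31), and uncalled genes are not shown to be unchanged.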

Other observations

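Genes next to several of the called genes on the chromosome also changed in HTB56. Taking 10 tested genes on each side in RefSeq order, a choice made after the values were seen, BMPR2 on chromosome 2 had 11 of 20 neighbours called lower and 0 higher, with a median change of -0.40. FSTL1 on chromosome 3 had 9 lower and 0 higher with a median of -0.27, and BMP2 on chromosome 20 had 10 higher and 2 lower with a median of 0.30. Among genes not called themselves, BMP6 on chromosome 6 had 13 neighbours higher and 1 lower, and BAMBI on chromosome 10 had 10 higher and 2 lower. INHBA on chromosome 7 had 1 higher and 10 lower. SMAD3 and SMAD6, both on chromosome 15, had 9 higher each, with 1 and 0 lower. SKIL on chromosome 3 had 0 higher and 7 lower, and INHA on chromosome 2 had 1 higher and 6 lower.

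Of all genes tested, 19.5% were called in HTB56. TGFBR1 on chromosome 9 and ID2 on chromosome 2 each had 0 neighbours higher and 6 lower, with medians of -0.19 and -0.08. LTBP2 on chromosome 14, which itself fell, had 6 higher and 1 lower with a median of 0.25. TGFB2 on chromosome 1 had 0 higher and 1 lower, and FST on chromosome 5 had 3 higher and 1 lower. In A549, where 1.75% of all genes tested were called, PMEPA1, GREM1, SMAD2 and TGFB1 had 0 of 20 neighbours called in either direction. LTBP1 had 1 called lower. With so small a share over all genes, 0 of 20 does not set these genes apart. No copy number was measured on these samples here, and the part of the chromosomal position was not tested.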
